A study of Saccharomyces cerevisiae with 4 samples.

Results

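The genes described here encode 50 nucleolar factors of the small ribosomal subunit in budding yeast: the subunits of the small-subunit processome and the enzymes and binding factors that work with it. They were taken by gene symbol from a list that was written with earlier results of these data known, although its rule uses no measured value, and all 50 were found among the 5449 *Saccharomyces cerevisiae* genes on the array, each with 1 probe set. The 4 samples were haploid cultures of a strain named FM391: cells lacking *SOD1* (sod1Δ) after 20 min in 0.4 mM H2O2, wild type cells after the same treatment, untreated sod1Δ cells and untreated wild type cells. *SOD1* encodes the cytosolic copper-zinc superoxide dismutase, and the study looked for genes that depend on it for their response to peroxide. All cultures grew at 30 °C to early log phase in synthetic medium lacking leucine. Each sample was measured on 1 array, so no difference below has a replicate check or a p-value, and each compares arrays and not populations of cultures.

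Ribosome assembly starts in the nucleolus, where RNA polymerase I makes a long precursor that holds the 18S rRNA between spacers. The UtpA complex binds the 5′ external transcribed spacer, UtpB and the U3 small nucleolar ribonucleoprotein follow, and U3 base-pairs with the precursor to hold the 18S domains apart while they fold. Helicases, a GTPase and modifying enzymes then drive the cleavages that release the pre-40S particle. In yeast these genes belong to the ribosome biogenesis regulon, which is known to be repressed together in many stresses.

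Levels are the log2 signals that the authors deposited. A gene was called lower or higher past a 2-fold difference, a log2 difference of 1, when its brighter array lay above the background floor of 2.31 set by *S. pombe* probe sets. All 50 genes entered every comparison, and 49 lay above the floor on all 4 arrays. *MRD1* in treated sod1Δ cells was the exception. As a scale for measurement error, 2 probe sets of the same gene gave changes with an SD per probe set of 0.59 for the response in sod1Δ (42 genes) and 0.51 for that in wild type (41 genes). It was 0.45 between the treated strains and 0.31 between the untreated strains. This SD covers the probes and not the cultures. The 18 probe sets of hybridization controls differed by a median of 0.11 for the response in sod1Δ, -0.74 for that in wild type, 0.25 between the treated strains and -0.65 between the untreated strains. They differed most where untreated wild type entered, and their part in the results was not tested. *SOD1* itself was at 2.42 and 2.40 in treated and untreated sod1Δ cells and at 14.31 and 14.21 in treated and untreated wild type cells, as the labels require.

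Nearly the whole assembly line had lower signals after peroxide in both strains. In sod1Δ cells 48 of the 50 genes were at least 2-fold lower after H2O2, where 15.8% of all 5341 genes tested were, and in wild type cells again 48 of 50, where 16.1% of 5358 genes were. None was higher in either strain, against 14.6% of all genes in sod1Δ and 17.1% in wild type. The same 48 genes were lower in both strains, and the other 2, *UTP30* and *RRP7*, also had lower signals after treatment. The median change was -3.71 in sod1Δ and -3.30 in wild type, beside -0.03 over all genes in each strain. At the 4-fold level 43 genes passed in each strain, where 6.55% of all genes did in sod1Δ and 6.2% in wild type. At the 8-fold level 31 genes in sod1Δ and 32 in wild type passed, where 3.28% of all genes in sod1Δ and 3.15% in wild type did. Of the 50 genes, 27 passed 8-fold in both strains. The share of all genes lower in both strains was not counted, so these overlaps have no background beside them. At the median gene 7.65% of the untreated signal was left in sod1Δ and 10.2% in wild type. Signals are relative to the other RNA on each array, so these values show a lower share of these transcripts. They do not give total RNA per cell or copies of these transcripts per cell.

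**Figure D1:**
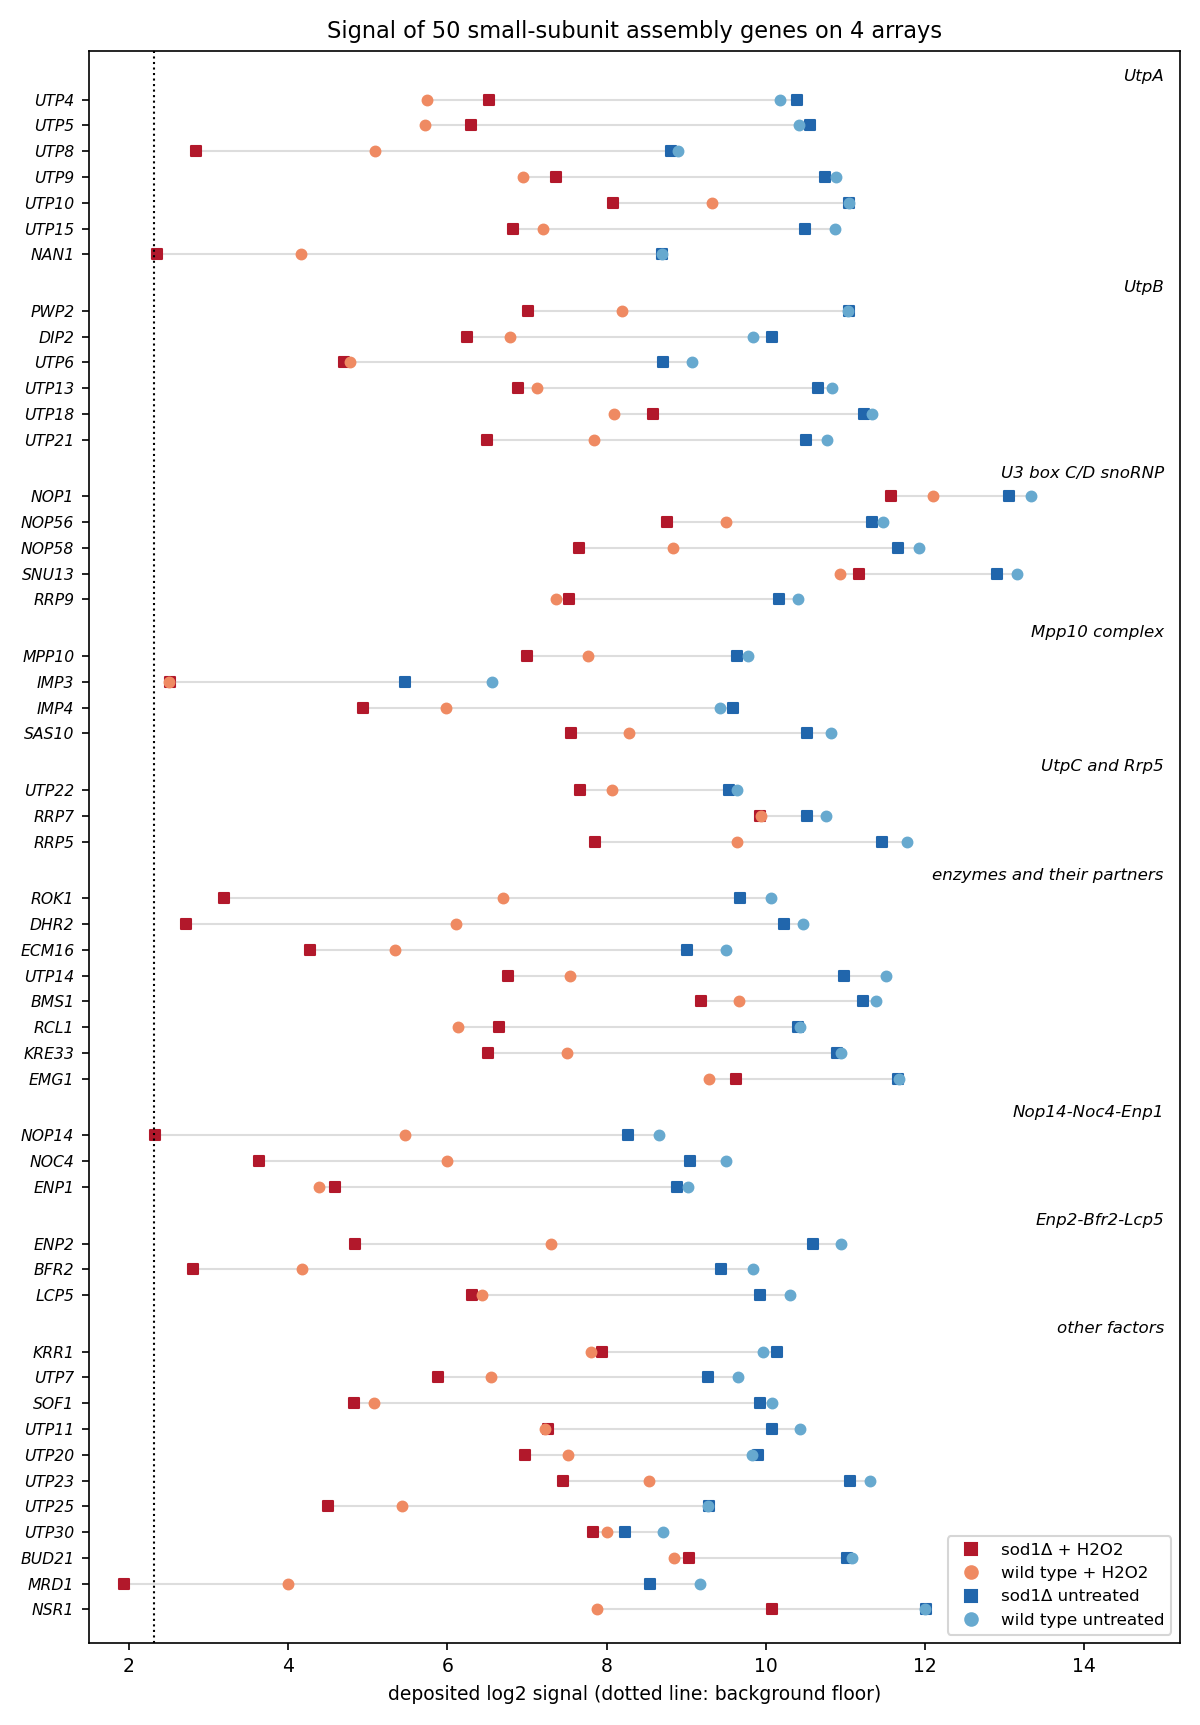
Deposited log2 signal (x axis) of the 50 small-subunit assembly genes (rows, grouped by role) on the 4 arrays, with squares for sod1Δ, circles for wild type, reds for H2O2 and blues for untreated cells; the dotted line is the background floor of 2.31. In every row both treated points lie to the left of both untreated points, closest together for *UTP30* and *RRP7*.

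The UtpA complex, which binds the nascent precursor before the other modules and is tied to rDNA transcription, was lower in all 7 genes in both strains, with a median of -3.87 in sod1Δ and -3.94 in wild type. *UTP5* was at 6.29 in treated sod1Δ and 5.72 in treated wild type, against 10.56 in untreated sod1Δ and 10.42 in untreated wild type. It showed the largest UtpA decrease in wild type (-4.70). *NAN1*, also called UTP17, was at 2.35 in treated sod1Δ, close to the floor, and at 4.16 in treated wild type, against 8.70 in untreated sod1Δ and 8.69 in untreated wild type. *UTP8* was at 2.84 in treated sod1Δ and 5.09 in treated wild type, with 8.81 in untreated sod1Δ and 8.90 in untreated wild type. Both ended near the floor in sod1Δ only, and they had the largest UtpA decreases in sod1Δ (-6.35 and -5.97). *UTP10*, which encodes a very large helical-repeat scaffold, kept the most signal, at 8.08 in treated sod1Δ and 9.32 in treated wild type, against 11.05 in untreated sod1Δ and 11.04 in untreated wild type. *UTP4* was at 6.52 in treated sod1Δ and 5.74 in treated wild type, against 10.39 in untreated sod1Δ and 10.18 in untreated wild type. *UTP9* was at 7.37 in treated sod1Δ and 6.95 in treated wild type, against 10.74 in untreated sod1Δ and 10.88 in untreated wild type, so both kept slightly more signal in sod1Δ. *UTP15* had the same change of -3.66 in both strains, at 6.82 in treated sod1Δ, 0.38 below treated wild type, against 10.49 in untreated sod1Δ and 10.87 in untreated wild type.

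UtpB, the second large scaffold on the 5′ spacer, was lower in 6 of 6 genes in each strain, with changes of -4.03 to -2.65 in sod1Δ and -4.29 to -2.84 in wild type. *PWP2*, a WD-repeat subunit, was at 7.01 in treated sod1Δ and 8.19 in treated wild type, against 11.04 in untreated sod1Δ and 11.03 in untreated wild type. *UTP6* was at 4.70 in treated sod1Δ and 4.78 in treated wild type, against 8.72 in untreated sod1Δ and 9.07 in untreated wild type. The treated strains lay within 0.08 for *UTP6* and 1.18 apart for *PWP2*. *UTP18* kept the most signal in sod1Δ, at 8.58 in treated sod1Δ and 8.10 in treated wild type, against 11.23 in untreated sod1Δ and 11.34 in untreated wild type. *UTP13* was at 6.88 in treated sod1Δ and 7.13 in treated wild type, against 10.66 in untreated sod1Δ and 10.83 in untreated wild type, with nearly equal changes of -3.78 in sod1Δ and -3.70 in wild type. *UTP21* was at 6.49 in treated sod1Δ and 7.84 in treated wild type, against 10.51 in untreated sod1Δ and 10.77 in untreated wild type, and thus kept less signal in sod1Δ. *DIP2*, another WD-repeat subunit, was at 6.24 in treated sod1Δ and 6.78 in treated wild type, against 10.07 in untreated sod1Δ and 9.83 in untreated wild type.

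The protein genes of the U3 particle had smaller changes, with medians of -2.57 in sod1Δ and -2.21 in wild type and all 5 genes lower in both. *NOP1*, the yeast fibrillarin that methylates ribose in all box C/D particles, was at 11.58 in treated sod1Δ and 12.10 in treated wild type, against 13.06 in untreated sod1Δ and 13.34 in untreated wild type. Its change was -1.48 in sod1Δ and -1.23 in wild type, the smallest called change of all members in each strain. *SNU13*, whose product also binds the spliceosomal U4 RNA, was at 11.17 in treated sod1Δ and 10.94 in treated wild type, against 12.90 in untreated sod1Δ and 13.15 in untreated wild type. *NOP58*, a core protein shared by all box C/D particles, changed most, at 7.65 in treated sod1Δ and 8.84 in treated wild type, against 11.67 in untreated sod1Δ and 11.92 in untreated wild type. *NOP56*, its partner in the core, was at 8.76 in treated sod1Δ and 9.50 in treated wild type, against 11.33 in untreated sod1Δ and 11.47 in untreated wild type. *RRP9*, the subunit found only on U3, was at 7.53 in treated sod1Δ and 7.37 in treated wild type, against 10.17 in untreated sod1Δ and 10.40 in untreated wild type. For each of the 5 genes both treated signals lay below both untreated signals.

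The Mpp10 complex, through which Imp3 and Imp4 help U3 to pair with the precursor, was lower in all 4 genes in both strains, with medians of -2.96 in sod1Δ and -2.99 in wild type. *IMP3* ended close to the floor in both strains. It was at 2.52 in treated sod1Δ and 2.51 in treated wild type, against 5.46 in untreated sod1Δ and 6.56 in untreated wild type, so its folds rest on weak signals. *IMP4* was at 4.94 in treated sod1Δ and 5.99 in treated wild type, against 9.59 in untreated sod1Δ and 9.42 in untreated wild type. *MPP10* had the smallest change in both strains, with treated sod1Δ 0.77 below treated wild type at 7.77, against 9.64 in untreated sod1Δ and 9.78 in untreated wild type. *SAS10*, also called UTP3, was at 7.56 in treated sod1Δ and 8.28 in treated wild type, against 10.52 in untreated sod1Δ and 10.82 in untreated wild type.

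The listed genes of UtpC and Rrp5 formed the least changed role group. *RRP7*, a UtpC subunit, was at 9.93 in treated sod1Δ and 9.94 in treated wild type, against 10.52 in untreated sod1Δ and 10.76 in untreated wild type. With changes of -0.59 in sod1Δ and -0.82 in wild type it missed the 2-fold threshold in both strains. *UTP22*, its partner, was lower in both, at 7.67 in treated sod1Δ and 8.06 in treated wild type, against 9.54 in untreated sod1Δ and 9.64 in untreated wild type. Among the other partners of UtpC are the 4 subunits of casein kinase 2, a general protein kinase. None of these was lower in sod1Δ and 1 was lower in wild type, *CKA2*, with changes of -0.78 in sod1Δ and -1.12 in wild type. *RRP5*, which acts in the assembly of both subunits, was at 7.85 in treated sod1Δ and 9.63 in treated wild type, against 11.46 in untreated sod1Δ and 11.77 in untreated wild type.

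The enzymes and their partners were lower in 8 of 8 genes in both strains, with medians of -4.30 in sod1Δ and -3.71 in wild type. *DHR2*, a DEAH-box RNA helicase gene, was at 2.72 in treated sod1Δ and 6.11 in treated wild type, against 10.22 in untreated sod1Δ and 10.47 in untreated wild type. Its change of -7.51 in sod1Δ was the largest decrease in deposited signal of all 5341 genes tested there, with 0.55% of the signal left, while in wild type 4.88% was left and it ranked 53 of 5358. With 32 added to the linear signal the change in sod1Δ was -4.99, still the largest of the 50 genes. *ROK1*, a DEAD-box helicase gene, was at 3.19 in treated sod1Δ and 6.70 in treated wild type, against 9.68 in untreated sod1Δ and 10.06 in untreated wild type. It had the eighth largest decrease in sod1Δ (-6.49) and ranked 131 in wild type (-3.36).

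The other enzyme genes lay closer together in the treated strains. *ECM16*, encoding the helicase Dhr1 that strips U3 off the precursor, was at 4.27 in treated sod1Δ and 5.34 in treated wild type, against 9.02 in untreated sod1Δ and 9.50 in untreated wild type. *UTP14*, encoding its activator, was at 6.77 in treated sod1Δ and 7.54 in treated wild type, against 10.99 in untreated sod1Δ and 11.51 in untreated wild type. *KRE33*, the acetyltransferase of 18S rRNA, was at 6.52 in treated sod1Δ and 7.50 in treated wild type, against 10.89 in untreated sod1Δ and 10.94 in untreated wild type. Between the treated strains *ECM16* passed 2-fold (-1.06), while *KRE33* (-0.98) and *UTP14* (-0.77) did not. *RCL1* was at 6.65 in treated sod1Δ and 6.14 in treated wild type, against 10.41 in untreated sod1Δ and 10.43 in untreated wild type. *BMS1*, the GTPase that works with Rcl1, was at 9.19 in treated sod1Δ and 9.66 in treated wild type, against 11.22 in untreated sod1Δ and 11.39 in untreated wild type. *EMG1*, a methyltransferase of a pseudouridine in 18S rRNA, was at 9.62 in treated sod1Δ and 9.29 in treated wild type, against 11.66 in untreated sod1Δ and 11.67 in untreated wild type. *BMS1* and *EMG1* had the smallest changes of the enzymes, -2.02 and -2.04 in sod1Δ and -1.72 and -2.38 in wild type.

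The smaller modules were lower throughout. Nop14 and Noc4 form a heterodimer and Enp1 travels on with the pre-40S particle. *NOP14* was at 2.33 in treated sod1Δ, only just above the floor, and at 5.47 in treated wild type, against 8.26 in untreated sod1Δ and 8.66 in untreated wild type. *NOC4* was at 3.64 in treated sod1Δ, 2.36 below treated wild type, against 9.04 in untreated sod1Δ and 9.50 in untreated wild type. *ENP1* showed no such gap, at 4.59 in treated sod1Δ and 4.38 in treated wild type, against 8.88 in untreated sod1Δ and 9.02 in untreated wild type.

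In the Enp2, Bfr2 and Lcp5 group, *BFR2* had the largest decrease of all members in wild type (-5.67, rank 9 of 5358) and ranked 5 in sod1Δ (-6.63). It was at 2.80 in treated sod1Δ and 4.17 in treated wild type, against 9.44 in untreated sod1Δ and 9.84 in untreated wild type. *ENP2* was at 4.84 in treated sod1Δ and 7.30 in treated wild type, against 10.59 in untreated sod1Δ and 10.94 in untreated wild type. *LCP5* lay within 0.12 between the treated strains, at 6.31 in sod1Δ and 6.43 in wild type, against 9.93 in untreated sod1Δ and 10.31 in untreated wild type.

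Of the remaining 11 factors, 10 were lower in each strain. *MRD1*, encoding a protein with several RNA recognition motifs, was at 1.93 in treated sod1Δ, under the floor, and at 4.01 in treated wild type, against 8.55 in untreated sod1Δ and 9.17 in untreated wild type. In sod1Δ it was therefore at least 75.2-fold lower in deposited signal, and in wild type 35.9-fold lower. These folds rest on treated signals near or under the floor. *MRD1* changed by -3.50 in sod1Δ and -3.66 in wild type with 32 added to the linear signal. The deeper decrease in sod1Δ was thus not kept under that setting. *SOF1*, a WD-repeat factor, was at 4.83 in treated sod1Δ and 5.08 in treated wild type, against 9.93 in untreated sod1Δ and 10.07 in untreated wild type. *KRR1*, which holds a KH-type RNA-binding domain, was at 7.94 in treated sod1Δ and 7.81 in treated wild type, against 10.14 in untreated sod1Δ and 9.97 in untreated wild type. Both changed nearly equally in the strains, *SOF1* by -5.09 in sod1Δ and -5.00 in wild type and *KRR1* by -2.20 and -2.16. *UTP30*, which is not essential for growth, was at 7.83 in treated sod1Δ, 0.17 below treated wild type, against 8.23 in untreated sod1Δ and 8.71 in untreated wild type. With -0.40 in sod1Δ and -0.70 in wild type it had the smallest change of all members in each strain. *BUD21*, also dispensable, was at 9.04 in treated sod1Δ and 8.84 in treated wild type, against 11.02 in untreated sod1Δ and 11.08 in untreated wild type.

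The other members of this group lay between these values. *UTP20*, a giant scaffold, was at 6.98 in treated sod1Δ and 7.52 in treated wild type, against 9.91 in untreated sod1Δ and 9.83 in untreated wild type. *UTP7*, a WD-repeat factor, was at 5.88 in treated sod1Δ and 6.55 in treated wild type, against 9.27 in untreated sod1Δ and 9.65 in untreated wild type. *UTP11* was at 7.27 in treated sod1Δ and 7.22 in treated wild type, against 10.08 in untreated sod1Δ and 10.43 in untreated wild type. Their changes ran from -3.39 to -2.82 in sod1Δ and from -3.21 to -2.31 in wild type. *UTP23*, with a PIN-like domain, was at 7.46 in treated sod1Δ and 8.54 in treated wild type, against 11.06 in untreated sod1Δ and 11.31 in untreated wild type. *UTP25* was at 4.50 in treated sod1Δ and 5.43 in treated wild type, against 9.29 in untreated sod1Δ and 9.27 in untreated wild type.

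**Figure D2:**
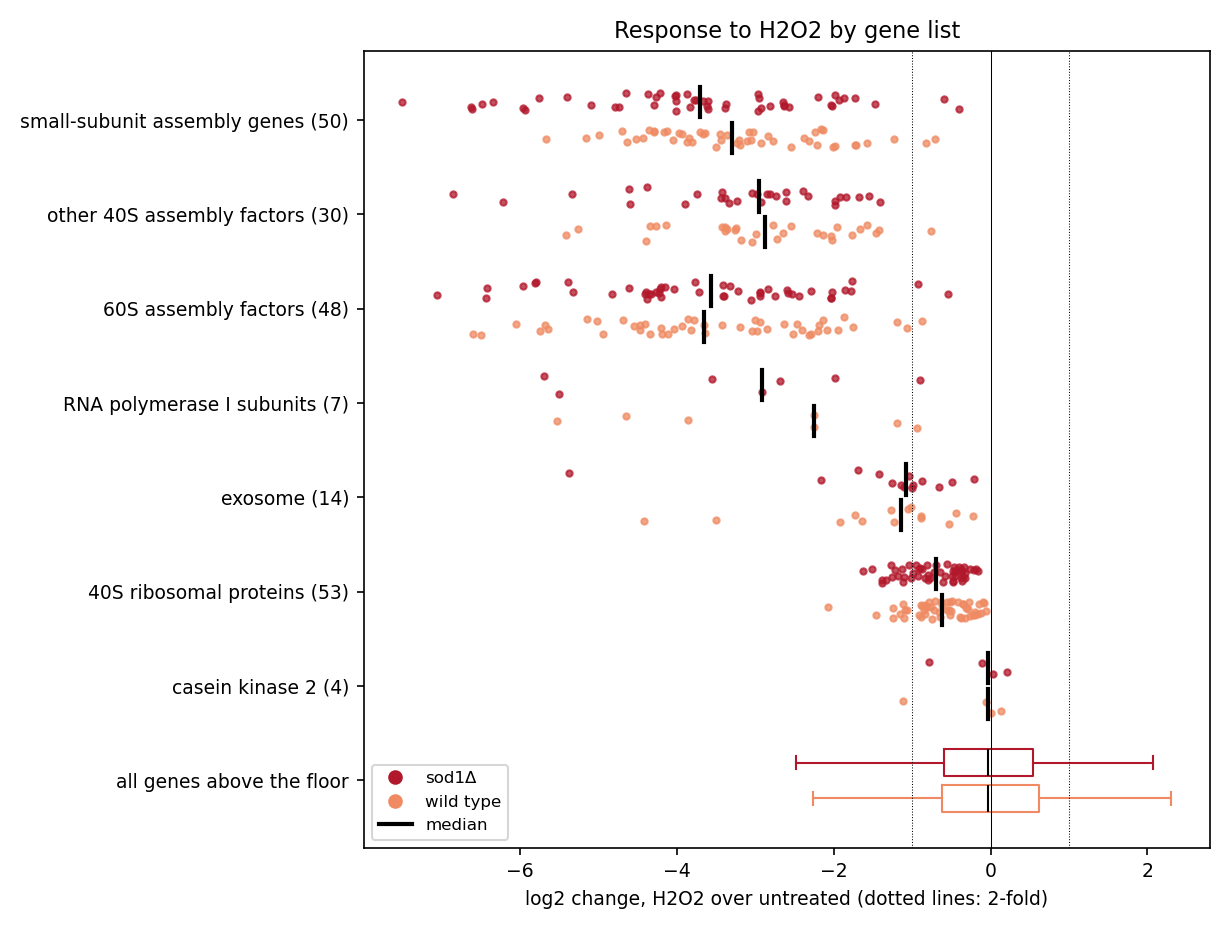
Log2 change of each gene, H2O2 over untreated (x axis), for the 50 small-subunit assembly genes, 6 related lists and all genes above the floor (box from the 25th to the 75th percentile, whiskers at the 5th and 95th), with sod1Δ above wild type in each row and a black bar at the median. The assembly lists for both subunits lie far below 2-fold (dotted line), the median of the ribosomal protein list between that line and 0, and the casein kinase 2 list around 0.

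Related lists set the scale for these changes. The other 30 factors of 40S assembly were lower in 30 of 30 cases in sod1Δ and 29 of 30 in wild type, with medians of -2.96 in sod1Δ and -2.88 in wild type. Their most changed members were *TSR1* in sod1Δ (-6.86), a late 40S factor, and *RRP36* in wild type (-5.41). Factors of the large subunit were lower in 46 of 48 cases in sod1Δ (median -3.56) and 47 of 48 in wild type (median -3.65). The subunits of RNA polymerase I were lower in 6 of 7 in each strain, with medians of -2.92 in sod1Δ and -2.25 in wild type and *RPA49* most changed in both. The exosome, the nuclease complex that trims and destroys the spacers, had 8 of 14 genes lower in sod1Δ and 9 in wild type, with medians of -1.07 in sod1Δ and -1.14 in wild type. The ribosomal proteins of the 40S subunit itself were lower in 14 of 53 cases in sod1Δ and 9 of 53 in wild type, with medians of -0.70 in sod1Δ and -0.61 in wild type. That is 26.4% in sod1Δ and 17.0% in wild type, beside 15.8% and 16.1% of all genes. The 18S rRNA, the product of this line, was represented by 8 probe sets at 13.84 or more, at the top of the signal range. Their median change was 0.09 in sod1Δ and -0.09 in wild type.

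Factors that bind the promoters of this regulon were measured as well. *TOD6*, a repressor that binds the PAC element, was at 2.84 in treated sod1Δ and 2.89 in treated wild type, against 9.43 in untreated sod1Δ and 8.92 in untreated wild type. Its paralogue *DOT6* changed by 0.23 in both strains. *STB3*, which binds the RRPE element, was higher by 1.29 in wild type and differed by 0.74 in sod1Δ, under the threshold. *SFP1*, an activator of the regulon, differed by 0.24 in sod1Δ and 0.28 in wild type.

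Neighbouring genes were counted as well. In the RefSeq gene order of assembly R64, no member lay next to another member. Of the 21 genes that lie head to head with a member, so that they may share an upstream region, 5 were lower in sod1Δ and 4 in wild type, with medians of -0.19 in sod1Δ and -0.13 in wild type. The lowest of them in wild type were *RPC53*, a subunit of RNA polymerase III beside *SAS10* (-3.56 in sod1Δ and -3.36 in wild type), and *NSA2*, a factor of 60S assembly beside *LCP5* (-2.03 in sod1Δ and -2.51 in wild type). Genes next to a member on the same strand were lower in 15 of 49 cases in sod1Δ and 14 of 49 in wild type, beside 15.8% over all genes in sod1Δ and 16.1% in wild type. Genes tail to tail with a member, which share no upstream region with it, were lower in 6 of 26 cases in sod1Δ and 7 of 27 in wild type, with medians of 0.02 in sod1Δ and 0.16 in wild type. That is 23.1% in sod1Δ and 25.9% in wild type. The share lower head to head was slightly above the tail to tail share in sod1Δ, at 23.8%. In wild type it was below that share, with 4 of 21 genes lower. Neither difference was tested, and both rest on few genes. The same-strand share was above both, at 30.6% in sod1Δ and 28.6% in wild type.

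Across the 50 members the response in sod1Δ and that in wild type, which come from separate pairs of arrays, correlated with r = 0.744 (Spearman rho = 0.717), a description across genes that are not independent replicates. Over 5334 genes the value was 0.925 (rho = 0.915). The extremes of the changes were further apart over all genes. The SD over genes was 1.41 for all genes and 1.60 for members in sod1Δ, and 1.44 and 1.13 in wild type.

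**Figure D3:**
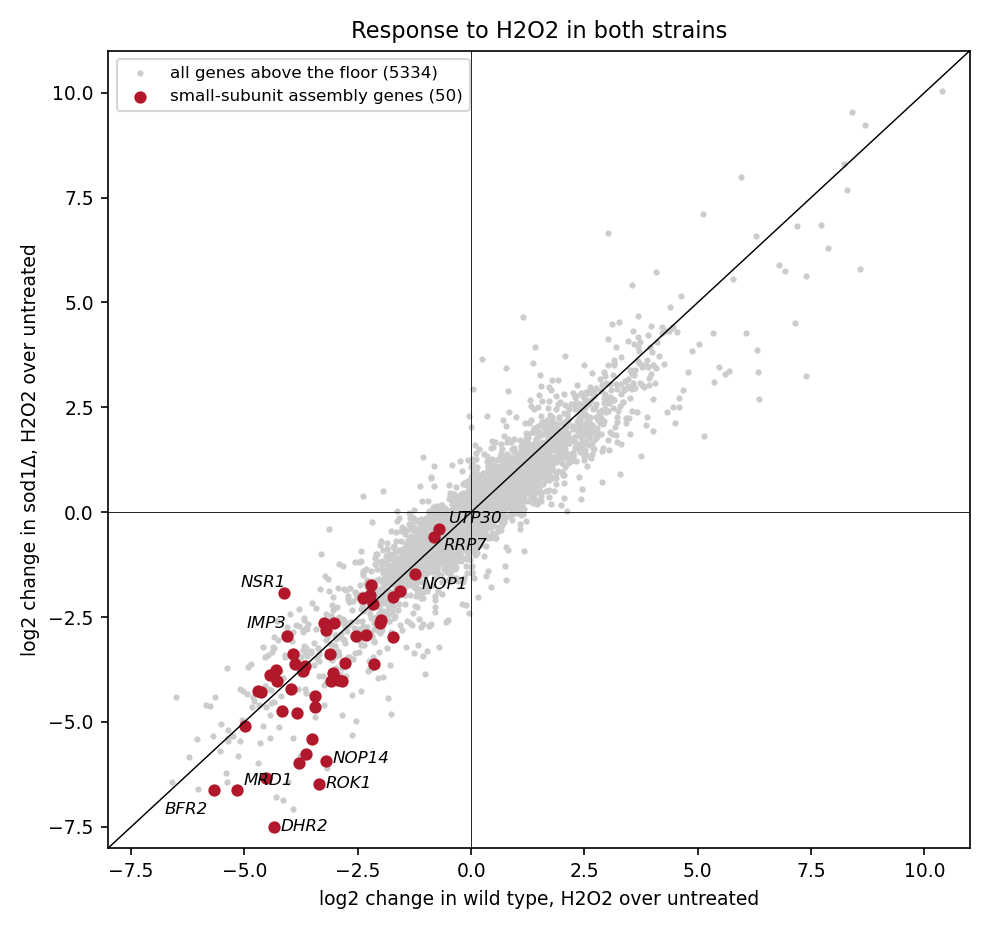
Log2 change in sod1Δ (y axis) against log2 change in wild type (x axis), H2O2 over untreated, for 5334 genes (grey) and the 50 small-subunit assembly genes (red), with the line of equal change. The members sit in the lower left, with *DHR2*, *ROK1* and *NOP14* well below the line and *NSR1* and *IMP3* above it.

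Between the untreated strains few assembly genes passed 2-fold. Of the 50 genes 1 was lower and none higher in untreated sod1Δ than in untreated wild type, where 3.18% of all 5344 genes were lower and 3.71% higher. The median difference was -0.20, beside -0.07 over all genes, with a range from -1.09 to 0.24. Of the 50 genes 39 lay below 0, beside 3084 of all 5344. Over all genes 170 were lower and 198 higher, and after quantile normalization 129 and 229, with 1 member lower again. With 32 added to the linear signal, which damps weak signals, no member passed, since *IMP3* differed by -0.73. The lower gene was *IMP3*, at 5.46 in untreated sod1Δ and 6.56 in untreated wild type. The next differences were those of *MRD1* (-0.63), *UTP14* (-0.53) and *ECM16* (-0.49), and the highest that of *DIP2* (0.24).

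After H2O2 the strains lay further apart. In treated sod1Δ 17 of the 50 genes were lower than in treated wild type, where 6.33% of all 5341 genes were lower, and 1 was higher, where 3.07% were. The median difference was -0.54, beside -0.05 over all genes, and 36 of 50 were below 0, beside 2939 of all 5341. *ROK1* was 11.4-fold lower in treated sod1Δ, *DHR2* 10.5-fold and *NOP14* 8.81-fold, which ranked 8, 11 and 18 from the lowest of all genes. Their treated sod1Δ signals of 3.19, 2.72 and 2.33 lay near the floor of 2.31, and with 32 added the differences were 3.31-fold for *ROK1*, 2.62-fold for *DHR2* and 2.06-fold for *NOP14*. They were followed by *ENP2* (-2.46), *NOC4* (-2.36), *UTP8* (-2.25), *NAN1* (-1.82), *RRP5* (-1.78), *BFR2* (-1.37), *UTP21* (-1.35), *UTP10* (-1.24), *NOP58* (-1.19), *PWP2* (-1.18), *UTP23* (-1.08), *ECM16* (-1.06) and *IMP4* (-1.05). *MRD1*, under the floor in treated sod1Δ, was at least 3.23-fold lower and completed the 17. After quantile normalization over all genes 215 were lower and 230 higher, beside 338 and 164 on the deposited scale, and 13 of the 17 stayed lower. *KRE33* (-0.98) and *UTP25* (-0.93) lay just short of the threshold. None of the 17 was 2-fold lower in untreated sod1Δ, as the plot of strain differences by gene shows. Few genes of any kind were, with 1 of the 50 members and 3.18% of all genes, so little overlap was possible.

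**Figure D4:**
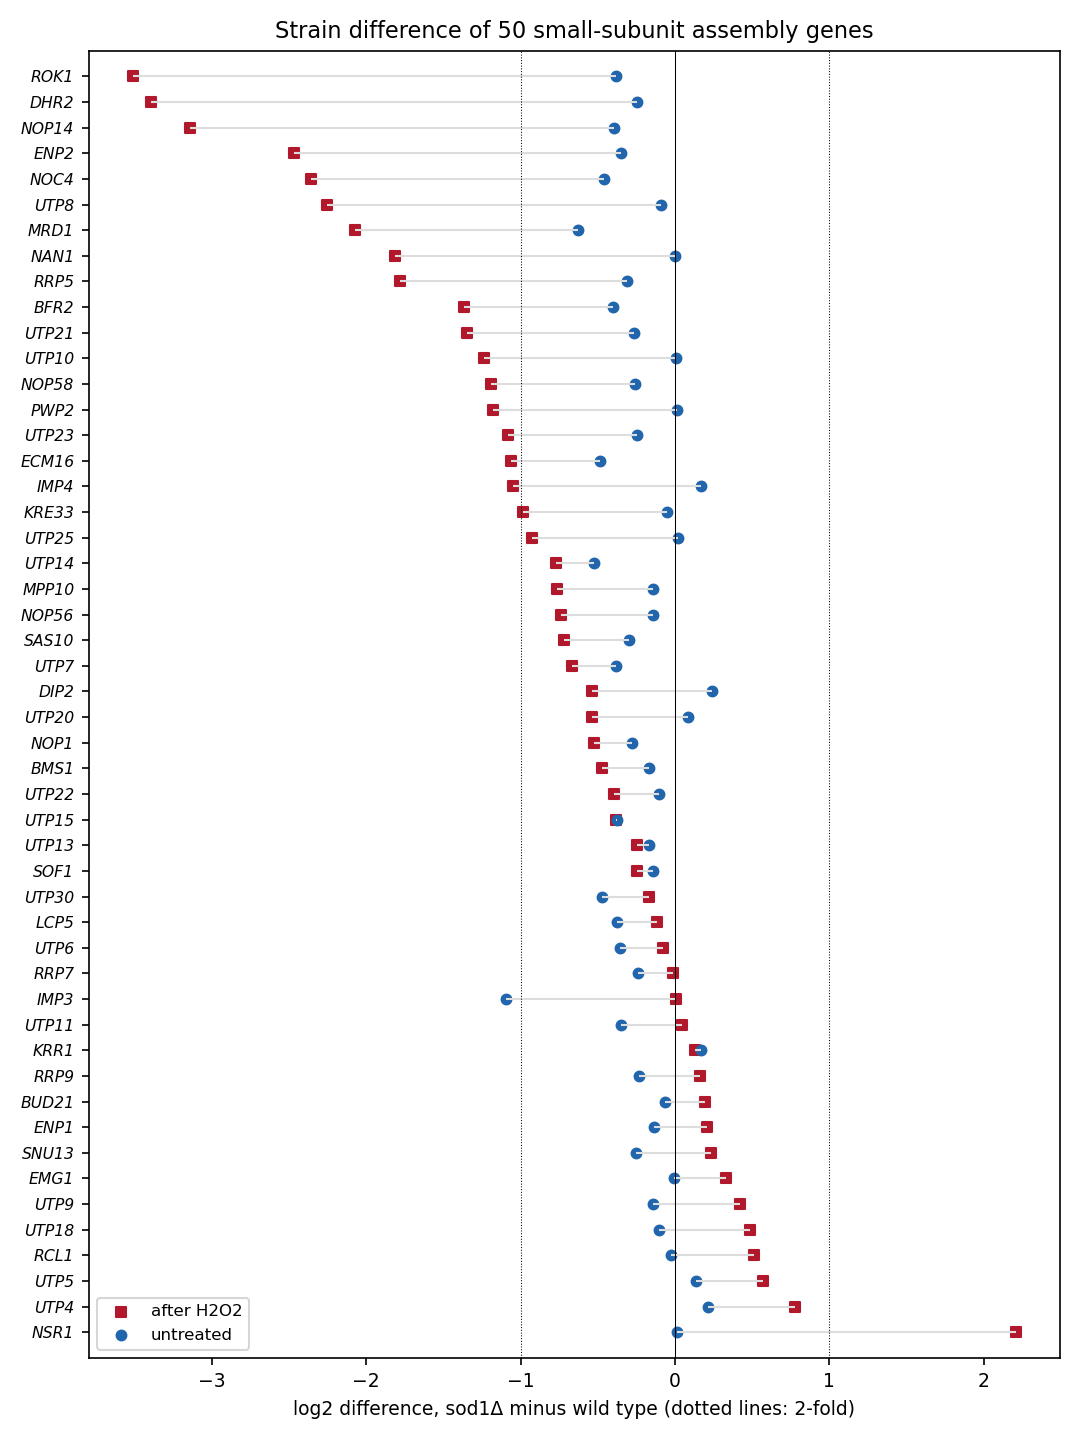
Log2 difference of sod1Δ minus wild type (x axis) for each of the 50 genes, after H2O2 (red squares) and untreated (blue circles), ordered by the treated difference; dotted lines mark 2-fold. The untreated points lie between -1.09 and 0.24, while the treated points run from -3.51 for *ROK1* to 2.21 for *NSR1*.

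Counted by module, the genes lower in treated sod1Δ stood beside 6.33% of all genes, and differences between modules were not tested. UtpA had 3 of 7 (*UTP8*, *UTP10*, *NAN1*), while *UTP4* (0.78), *UTP5* (0.57) and *UTP9* (0.42) lay above 0. UtpB had 2 of 6, the U3 particle 1 of 5, the Mpp10 complex 1 of 4 and the group of UtpC and Rrp5 1 of 3. The enzymes had 3 of 8, both Nop14 and Noc4 were lower and Enp1 was not, and Enp2 and Bfr2 were lower and Lcp5 was not.

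*NSR1*, the yeast nucleolin, was the only member higher in treated sod1Δ. It was at 10.08 in treated sod1Δ and 7.88 in treated wild type, against 12.02 in untreated sod1Δ and 12.00 in untreated wild type. It was thus 4.61-fold higher after H2O2 in sod1Δ and ranked 23 from the highest of 5341 genes. It was lower than untreated in both strains, with 26.2% of the signal left in sod1Δ and 5.73% in wild type.

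The treated difference varied with signal strength over all genes. Where the mean signal of the treated arrays was under 6, 27.5% of 559 genes were lower in treated sod1Δ and 6.26% higher, and where it was 6 or more, 3.85% of 4782 genes were lower and 2.70% higher. Of the members 15 fell under 6, with 10 of them lower (median -1.37), and 35 lay at 6 or more, with 7 lower and 1 higher (median -0.39). The brighter 7 were *UTP10*, *PWP2*, *UTP21*, *NOP58*, *RRP5*, *ENP2* and *UTP23*. With 32 added to the linear signal, 10 of the 17 stayed at least 2-fold lower, and *UTP8*, *NAN1*, *IMP4*, *ECM16*, *BFR2*, *UTP23* and *MRD1* did not. Under that setting 2.90% of all genes were lower. The part of signal strength in the strain difference was not tested beyond these values.

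**Figure D5:**
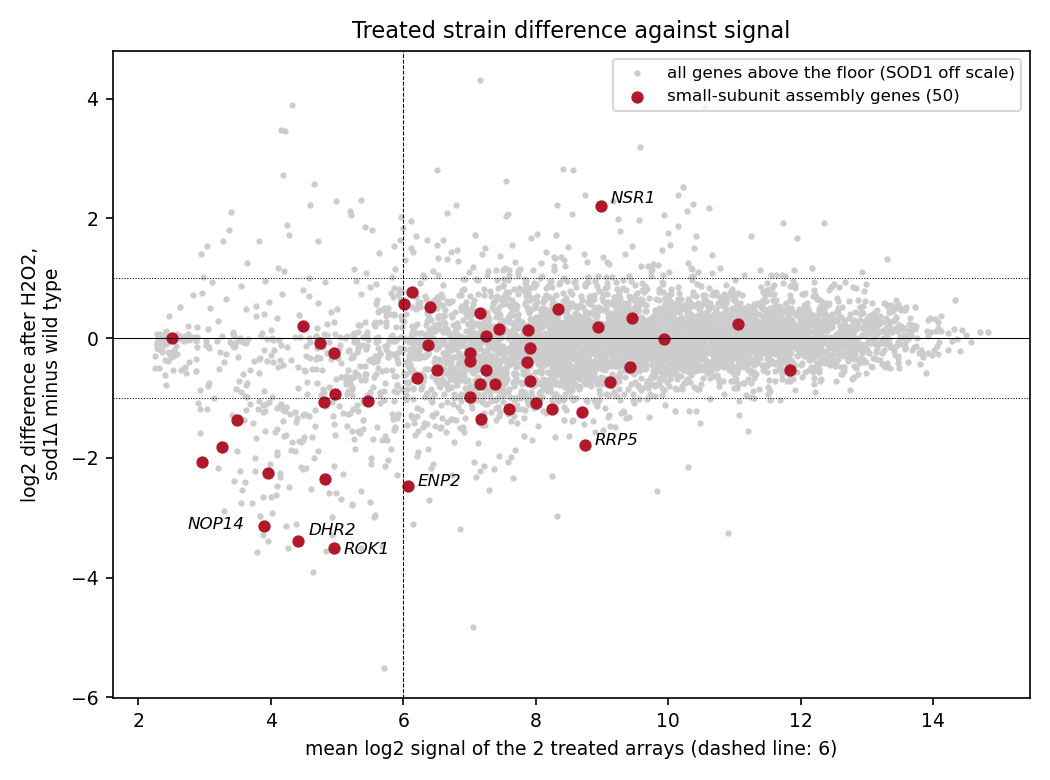
Log2 difference after H2O2, sod1Δ minus wild type (y axis), against the mean log2 signal of both treated arrays (x axis) for all genes above the floor (grey, *SOD1* off scale) and the 50 small-subunit assembly genes (red); dotted lines mark 2-fold and the dashed line a signal of 6. Grey points spread wider and lean downward under 6, where 10 of 15 members are lower, and *ENP2*, *RRP5* and *NSR1* stand apart at higher signals.

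The difference of the responses, the change in sod1Δ minus the change in wild type, was taken over all 4 arrays. For 13 of the 50 genes the decrease was at least 2-fold deeper in sod1Δ, where 4.03% of all 5365 genes had a response that much lower, and for 2 it was shallower, where 2.67% had one that much higher. The median was -0.30, beside -0.02 over all genes, and 21 of the 50 lay within 0.5 of 0. Below 0 were 33 of 50, beside 2796 of all 5365. Over all genes 216 were lower and 143 higher, and after quantile normalization 183 and 194, with 11 of the 13 members still lower. With 32 added to the linear signal 6 of the 13 stayed lower, namely *UTP10*, *PWP2*, *RRP5*, *ROK1*, *DHR2* and *ENP2*, and the median was -0.11. Under that setting 1.83% of all genes were lower. *DHR2* (-3.15), *ROK1* (-3.12) and *NOP14* (-2.74) had the deepest decreases relative to wild type on the deposited scale, with treated sod1Δ signals of 2.33 to 3.19, near the floor. With 32 added *ROK1* was at -1.35, *DHR2* stayed past 2-fold, and *NOP14* lost its call at -0.68. The 2 shallower were *NSR1* (2.19), ranked 13 from the highest of all genes, and *IMP3* (1.10), whose treated signals matched and whose untreated signal was lower in sod1Δ. With 32 added *NSR1* stayed past 2-fold (2.05) and *IMP3* did not (0.73). This quantity shares its arrays with each comparison above and is not independent of them.

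The related lists had other shares lower in treated sod1Δ, where 6.33% of all 5341 genes were lower and 3.07% higher. The share was 8 of 30 for the other 40S factors with 1 higher (median -0.64), 8 of 47 for the 60S factors with 2 higher (median -0.19), and 3 of 7 for RNA polymerase I with 1 higher (median -0.88). None of the 53 ribosomal protein genes of the 40S subunit was past 2-fold in either direction (median -0.26). These genes are bright, with 51 above 10 in treated sod1Δ and 52 in treated wild type. Where the mean treated signal was 10 or more, only 0.63% of 2058 genes were lower and 1.65% higher. *TSR1* (-2.92) had the largest difference of the other 40S factors. Whether these lists differ from the 50 genes was not tested.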

How the data were processed

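Total RNA of 4 cultures was hybridized to 1 Affymetrix array each. RNA (50 ng) was amplified before biotin labelling, per the labels' protocols. The authors deposited 1 log2 signal per probe set and array. GCRMA made these values, per the submitters' processing notes. The sources used here give no version or settings of it. The table held 10928 probe sets, of which 5498 named 1 *S. cerevisiae* gene and 1746 *S. pombe*. Symbols were updated by gene identifier to RefSeq R64 for 12 probe sets, and *DBP4* was matched under the symbol *HCA4*. Probe sets of a gene were averaged. The floor was the 95th percentile of the *S. pombe* probe sets over all arrays. Arrays give no counting depth, so their number limits the precision.

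Samples were grouped by the labels. With 1 array per group there were no residual degrees of freedom and no test. Log2 differences were computed for treated over untreated in each strain, sod1Δ over wild type in each condition, and the difference of the responses. The steps were tested on simulated data. The 50 genes, their grouping by role and the related lists were chosen with earlier results of these data known, so their direction is not independent evidence. All 50 are described. The rule for named genes asked for signals of the 2 most and 2 least changed genes of each role group in each comparison and of all genes called between strains; signals of all 50 are given instead. Of related lists, only the most changed gene was to be named. Neighbours and *CKA2* named in the text were chosen after their values were seen. The 9 alternatives listed in the closing section were tried. The planned search of promoters for motifs was not run, because promoter sequences were not used here. Python 3.11.15, pandas 2.3.3, numpy 2.4.6 and matplotlib 3.10.9 were used.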

Additional observations from a re-analysis of the deposited data

How the results depend on the processing

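The counts and medians of the 50 genes were recomputed under 9 alternatives: quantile normalization, centring on the median gene, the brightest probe set, 32 added to the linear signal, no floor, a brighter array above 6, thresholds of 1.5-fold and 4-fold, and leaving out probe sets that can match other transcripts. The brightest probe set, no floor and the last alternative could not change any value of the 50 genes. Each gene has 1 probe set, none of the kind left out, and all 50 entered every comparison. No called median changed sign, and the counts of genes lower after H2O2 in each strain stayed within 1.5 times. The median difference of the responses was -0.30, against -0.19 after quantile normalization and -0.11 with 32 added. The median treated difference was -0.54, against -0.39 after quantile normalization and -0.43 with 32 added. Genes lower in treated sod1Δ numbered 17, against 10 with 32 added, 9 of the 37 with a brighter array above 6, and 7 past 4-fold. The shares of all genes were 6.33%, against 2.90%, 4.78% and 1.52% in the same order. Genes higher in treated sod1Δ numbered 1, against 2 after quantile normalization and 2 past 1.5-fold, beside 3.07%, 4.30% and 9.02% of all genes. Genes with a deeper decrease in sod1Δ numbered 13, against 6 with 32 added, 22 past 1.5-fold and 5 past 4-fold, and those with a shallower one 2, against 1 with 32 added and 1 past 4-fold. Genes lower in untreated sod1Δ numbered 1, against 0 with 32 added, 2 past 1.5-fold and 0 past 4-fold. The shares of all genes there were 3.18%, against 1.31%, 10.2% and 0.34%. The cause was not tested, beyond the construction of each alternative. No paired analysis was possible because each group holds 1 array, and none could be left out.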
